A study of Mus musculus with 4 samples.

Results

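The HOX cluster genes were described in cultured mouse neural progenitors as a record of the axial level the cells came from. HOX genes encode homeodomain transcription factors, lie in 4 clusters (HoxA to HoxD) and are numbered by paralogue from 1 to 13 along each cluster. Low-numbered genes are expressed from the hindbrain backwards and high-numbered genes only towards the tail and in limb buds, so that HOX genes tell hindbrain and spinal cord apart from the forebrain and midbrain, which as a rule do not express them. Retinoic acid, Cdx factors and FGF signals start their expression, Polycomb proteins keep them silent elsewhere, and TALE homeodomain proteins (Meis, Pbx and Pknox) bind DNA with them. Members were taken as every entry whose symbol is Hox, a cluster letter and a paralogue number. There were 38 of them among 21091 entries, with 10 in HoxA, 10 in HoxB, 9 in HoxC and 9 in HoxD. *Hoxa4* was not analysed here.

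The 4 libraries, 1 per group, came from progenitors of C57BL/6 embryos at embryonic day 11 (E11) or 14 (E14), from control (CTL) or *Stat3* cKO animals, after 3 days of culture. According to the study's methods, embryonic brains were dissociated and grown as suspended neurospheres in EGF and FGF, and which regions of the brain were taken is not given. The *Stat3* cKO embryos carried floxed *Stat3* alleles and Cre driven by Nestin regulatory sequence, which directs it to neural progenitors. The labels call the control WT, whereas the animal methods give Nestin-Cre embryos with 1 floxed *Stat3* allele as control, so Cre may be shared by all groups or differ between them. With 1 library in a group the error of a difference is unknown, so values are compared without a test. *Stat3* itself had 7.41 FPKM (CTL) and 6.74 FPKM (*Stat3* cKO) at E11 and 27.6 FPKM (CTL) and 9.55 FPKM (*Stat3* cKO) at E14. The library labelled *Stat3* cKO thus held 0.911 times the CTL value at E11 and 0.346 times at E14, and E11 *Stat3* cKO is used here for the library so labelled. Only some exons are floxed, so a value over the whole gene does not read the deleted part, and the study places the deletion in progenitors by E14. FPKM counts fragments for each kilobase of a transcript and divides them by the library's mapped fragments. Where 4 values follow each other without a library, they stand for CTL and then *Stat3* cKO at E11, and CTL and then *Stat3* cKO at E14.

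All 38 HOX genes were below 1 FPKM in every library. Of all entries, 59.3% (CTL) and 58.5% (*Stat3* cKO) reached 1 FPKM at E11 and 56.1% (CTL) and 56.4% (*Stat3* cKO) at E14. The median HOX gene had 0.0841 FPKM (CTL) and 0.0387 FPKM (*Stat3* cKO) at E11 and 0.0378 FPKM (CTL) and 0.0468 FPKM (*Stat3* cKO) at E14. Summed over the 38 genes, the level was 3.89, 1.85, 1.81 and 2.45 FPKM in the same order. At least 0.1 FPKM was reached by 15 HOX genes (39.5%) in E11 CTL, where 80.0% of all entries did. In E11 *Stat3* cKO 4 HOX genes (10.5%) reached it, against 75.4% of all entries. In E14 CTL it was 6 (15.8%) against 70.4%, and in E14 *Stat3* cKO 7 (18.4%) against 72.6%. In bulk RNA, few cells with a HOX transcript and little transcript in many cells cannot be told apart.

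The highest HOX value of each library belonged to a different gene. It was *Hoxb5* with 0.33 FPKM in E11 CTL, *Hoxd8* with 0.206 in E11 *Stat3* cKO, *Hoxb13* with 0.172 in E14 CTL and *Hoxa6* with 0.28 in E14 *Stat3* cKO. Of all entries, 66.9%, 68.9%, 66.5% and 64.1% lay above that value in the same order. *Hoxd8* was listed at 0 in both E14 libraries and *Hoxa6* at 0 in E11 *Stat3* cKO and E14 CTL. *Hoxb13*, a gene of the tail end, had 0.246 FPKM in E14 *Stat3* cKO and 0.109 and 0.0466 FPKM in the E11 libraries. Apart from *Hoxb13* in the E14 libraries, the highest gene of a library had at most 0.121 FPKM in each of the others. A value of 0 was listed for no HOX gene of E11 CTL, for 6 of the E11 *Stat3* cKO library and for 5 (CTL) and 2 (*Stat3* cKO) at E14, and 28 of 38 were above 0 in all 4 libraries.

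**Figure D1:**
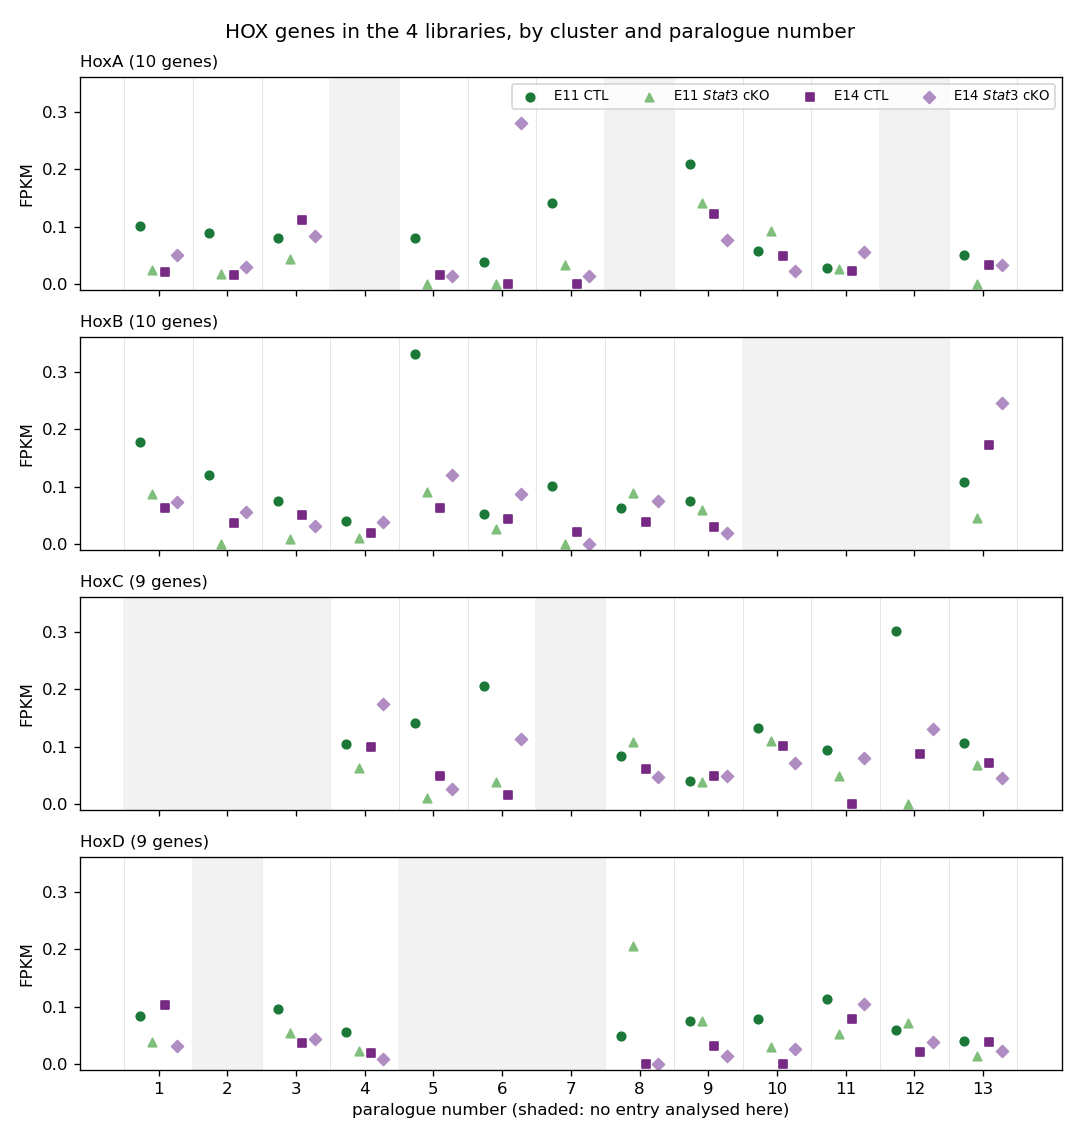
FPKM of the 38 HOX genes by cluster (panels) and paralogue number (horizontal axis), with 1 point per library and no error, since each group has 1 library. No point reaches 1 FPKM, the highest is *Hoxb5* in E11 CTL at 0.33, and the levels follow no order along the paralogue numbers that all 4 libraries share.

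The level of a HOX gene did not run with its place in the cluster in the same way in all libraries. Paralogues 1 to 4, the group that reaches furthest forward into the hindbrain, had a median of 0.09 FPKM (CTL) and 0.0251 FPKM (*Stat3* cKO) at E11 and 0.0377 FPKM (CTL) and 0.0445 FPKM (*Stat3* cKO) at E14. For paralogues 5 to 8, which mark the neck and upper trunk, the medians were 0.0848, 0.0342, 0.0216 and 0.0475 FPKM. For paralogues 9 to 13, which mark the lower trunk, tail and limbs, they were 0.0776, 0.0505, 0.0438 and 0.0472 FPKM. The most forward group thus had the highest median in E11 CTL and the lowest in the other E11 library. Of the 11 members in paralogues 1 to 4, the number at 0.1 FPKM or more was 4 (CTL) and 0 (*Stat3* cKO) at E11 and 3 (CTL) and 1 (*Stat3* cKO) at E14.

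Of the forward group, 3 genes known from the hindbrain were looked at singly, and were named after their values had been seen. *Hoxa2*, the HOX gene with the most forward boundary, had 0.09 FPKM (CTL) and 0.0174 FPKM (*Stat3* cKO) at E11 and 0.016 FPKM (CTL) and 0.0301 FPKM (*Stat3* cKO) at E14. *Hoxb1*, which marks a single segment of the hindbrain, had 0.177, 0.0867, 0.0636 and 0.0736 FPKM. *Hoxb2* had 0.12 FPKM (CTL) and 0 FPKM (*Stat3* cKO) at E11 and 0.0377 FPKM (CTL) and 0.0561 FPKM (*Stat3* cKO) at E14. None of the 3 reached 0.2 FPKM. They were highest in E11 CTL, as were 8 of the 11 members in paralogues 1 to 4, 65.8% of all HOX genes and 54.2% of other entries with means in the HOX range. *Hoxa3* and *Hoxd1* were highest in E14 CTL (0.112 and 0.103 FPKM) and *Hoxc4* in E14 *Stat3* cKO (0.174 FPKM).

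The highest member of each cluster was taken by its mean over the 4 libraries. In HoxA it was *Hoxa9*, a trunk gene, with 0.209 FPKM (CTL) and 0.142 FPKM (*Stat3* cKO) at E11 and 0.123 FPKM (CTL) and 0.0775 FPKM (*Stat3* cKO) at E14. In HoxB it was *Hoxb5*, with 0.33, 0.0909, 0.0639 and 0.121 FPKM. In HoxC it was *Hoxc12*, with 0.302, 0, 0.0872 and 0.131 FPKM. In HoxD it was *Hoxd11*, a limb and tail gene, with 0.113, 0.0526, 0.0783 and 0.104 FPKM. Without E11 CTL, *Hoxb13* (mean 0.155 FPKM) stood above *Hoxb5* (0.0921) and *Hoxc4*, of the forward group, (0.112) above *Hoxc12* (0.0729), while *Hoxa9* and *Hoxd11* stayed the highest of their clusters. The cluster sums ran from 0.654 (HoxD) to 1.21 FPKM (HoxC) in E11 CTL, from 0.382 (HoxA) to 0.565 (HoxD) in E11 *Stat3* cKO, from 0.329 (HoxD) to 0.544 (HoxB) in E14 CTL and from 0.294 (HoxD) to 0.75 (HoxB) in E14 *Stat3* cKO. No cluster was highest in all 4 libraries. Values of genes that share a listed locus (*Hoxa3*, *Hoxa5* and *Hoxa6*, *Hoxa11* and its antisense entry *Hoxa11as*, and *Hoxd3*, *Hoxd4* and *1700109F18Rik*) are uncertain, since fragments could be split between them.

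What single fragments are worth was read from olfactory receptor genes, a large family of short single-exon genes of the nose that the brain hardly expresses. On a transcript of 1 kb, 1 fragment stood for 0.0314 FPKM (CTL) and 0.0414 FPKM (*Stat3* cKO) at E11 and 0.037 FPKM (CTL) and 0.033 FPKM (*Stat3* cKO) at E14, taken from 722 receptor genes with a listed span of 900 to 1000 bases. Of the receptor values under 3.5 such steps, 84.9% to 93.7% lay within 0.2 of a whole number of steps. Taken as transcripts of that length, the median HOX values were 2.68 and 0.935 fragments at E11 and 1.02 and 1.42 fragments at E14 (CTL first), and E11 CTL was the library in which 1 fragment counted least.

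The 948 olfactory receptor entries had medians of 0.0679 FPKM (CTL) and 0.0439 FPKM (*Stat3* cKO) at E11 and 0.0342 FPKM (CTL) and 0.0364 FPKM (*Stat3* cKO) at E14. The 4575 other entries whose mean lay in the range of the HOX means, 0.0272 to 0.152 FPKM, had medians of 0.0876, 0.0571, 0.0349 and 0.0496. HOX medians were above those of the receptors in 3 libraries and below them in E11 *Stat3* cKO. At least 0.1 FPKM was reached by 32.1%, 16.2%, 8.54% and 15.7% of the receptors. Of the receptor entries, 2 (*Olfr613* and *Olfr856-ps1*) exceeded 1 FPKM in each library, whereas no HOX gene did.

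**Figure D2:**
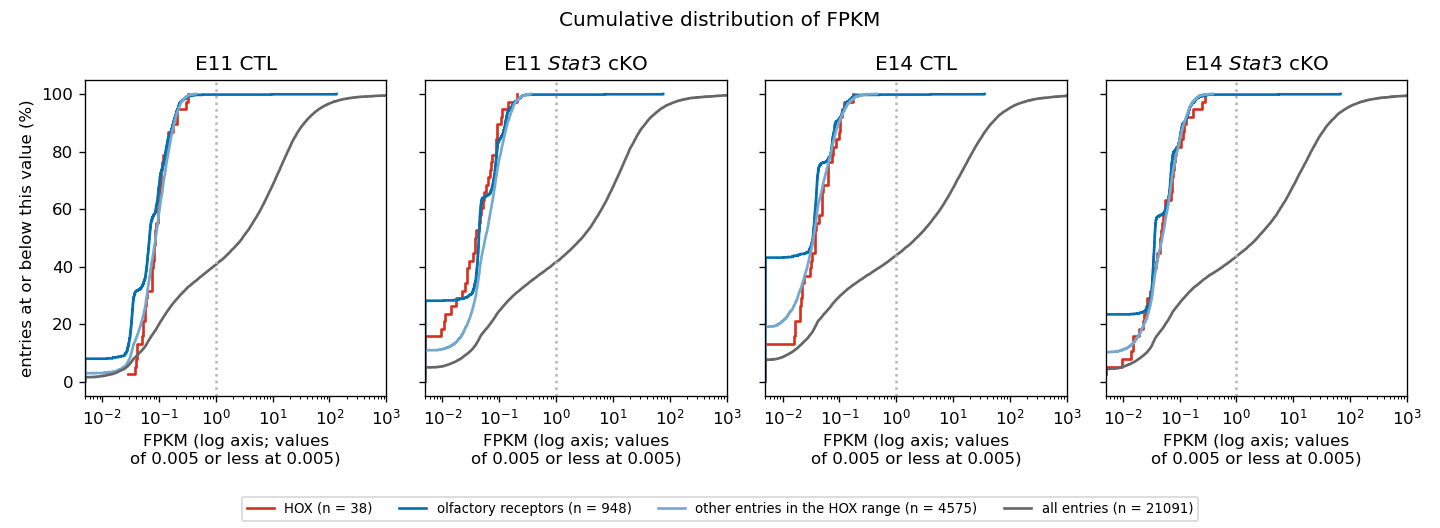
Share of entries (vertical axis, percent) at or below each FPKM (horizontal log axis, values of 0.005 or less drawn at 0.005) in each library, for HOX genes, olfactory receptor genes, other entries in the HOX range of means and all entries. The HOX curve lies with that of the receptors and ends left of the dotted line at 1 FPKM, which 56.1% to 59.3% of all entries reach. The other low entries were chosen to have means in the HOX range, so their nearness to the HOX curve is no result.

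Comparisons between stages and genotypes gave no HOX call, since ratios were formed for entries with a mean of at least 1 FPKM and no HOX gene had one. Between E14 and E11 in CTL, 14.6% of the entries with a ratio were higher by 2-fold or more and 12.5% were lower by as much, and in *Stat3* cKO 10.1% and 11.7%. Between *Stat3* cKO and CTL, 0.209% were higher and 1.12% lower at E11, and 1.85% were higher and 1.69% lower at E14. Without regard to size, 34 of 38 HOX genes (89.5%) had the lower value in E14 CTL than in E11 CTL, as did 73.5% of olfactory receptors and 81% of the other low entries. In the library labelled E11 *Stat3* cKO, whose *Stat3* was at 0.911 times CTL, 33 of 38 (86.8%) were lower than in E11 CTL, beside 64.2% and 70.6% of those sets. Both counts rest on the E11 CTL library, which held the highest value of 25 HOX genes (65.8%), of 42.4% of the receptors and of 54.2% of the other low entries. In the comparisons without that library, 21 HOX genes were higher and 16 lower in E14 *Stat3* cKO than in E11 *Stat3* cKO, and again 21 higher and 16 lower in E14 *Stat3* cKO than in E14 CTL. For stage in *Stat3* cKO, 55.3% of HOX genes were higher, beside 45.3% of the receptors and 41.2% of the other low entries, of which the larger shares (49.8% and 57.4%) were lower. For genotype at E14 the shares higher were 55.3%, 53.6% and 58.5%. The value of 1 fragment was 0.0314 FPKM in E11 CTL and 0.033 FPKM in E14 *Stat3* cKO, whose HOX medians were 0.0841 and 0.0468 FPKM. The part of depth in these shifts was not tested.

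Genes outside the clusters were expressed in part, and the entries inside were not found at 1 FPKM. By the listed coordinates, whose build could not be settled between mm8 and mm9, HoxA spans chr6:52105365-52210874, HoxB chr11:96055674-96229567, HoxC chr15:102751561-102867283 and HoxD chr2:74506366-74603199. The 4 entries inside these spans that are not members, among them the antisense RNA *Hotair* of HoxC, were also below 1 FPKM in every library. Of the 24 nearest entries outside (3 on each side of each cluster), 16 reached 1 FPKM in both E11 libraries and 15 in both E14 libraries. Of all entries, 59.3% and 58.5% reached it at E11 and 56.1% and 56.4% at E14 (CTL first). Among the 56 entries other than HOX genes inside the clusters or within 500 kb of their ends, it was 30 in both E11 libraries and 28 in both E14 libraries. *Mtx2*, a mitochondrial membrane gene 60.7 kb from HoxD, had 52.9 FPKM (CTL) and 60.6 FPKM (*Stat3* cKO) at E11 and 80.6 FPKM (CTL) and 64.7 FPKM (*Stat3* cKO) at E14. *Lnp*, a gene of the endoplasmic reticulum 89.4 kb from the other end of HoxD, had 13.6, 13.2, 13.3 and 10.3 FPKM.

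Expressed neighbours lay beside the other clusters as well. *Cbx5*, which encodes a heterochromatin protein and lies 155 kb from HoxC, had 108 FPKM (CTL) and 131 FPKM (*Stat3* cKO) at E11 and 137 FPKM (CTL) and 128 FPKM (*Stat3* cKO) at E14. *Smug1*, a DNA repair gene 116 kb from HoxC, had 9.6, 9.6, 11.4 and 11.5 FPKM. *Atp5g1*, an ATP synthase subunit gene 119 kb from HoxB, had 101, 106, 241 and 175 FPKM. *Skap2*, an adaptor gene 143 kb from HoxA, had 1.94, 1.53, 9.23 and 12.1 FPKM and was at E14 4.76 times its E11 value in CTL and 7.92 times in *Stat3* cKO. The other neighbours that reached 1 FPKM were *Snx10*, *Cbx3* and *Hibadh* beside HoxA, *Snx11* beside HoxB, *Calcoco1*, *Atp5g2* and *Atf7* beside HoxC, and *Atp5g3*, *Hnrnpa3* and *Nfe2l2* beside HoxD, from 0.78 FPKM for *Atf7* to 581 for *Atp5g2*. The homeobox gene *Evx2*, 8.89 kb from HoxD and named after its values were seen, had 0.392 and 0.634 FPKM in the E11 libraries and 0.0283 and 0.0286 in the E14 libraries. It was above every HOX gene in both E11 libraries and still below 1 FPKM.

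**Figure D3:**
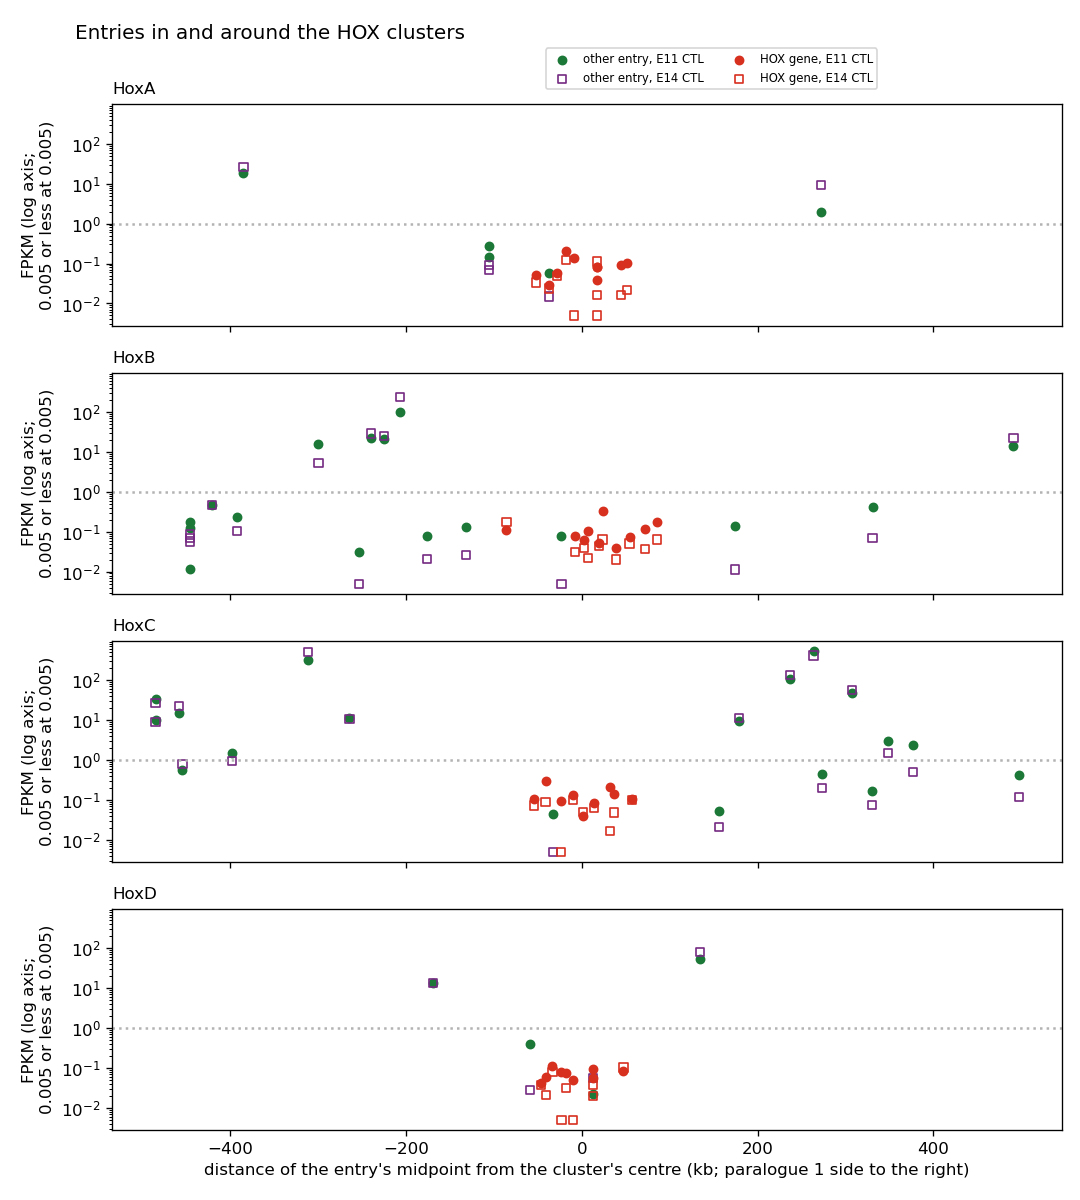
FPKM (log axis, values of 0.005 or less drawn at 0.005) of HOX genes (red) and other entries within 500 kb of each cluster's centre, in E11 CTL (filled) and E14 CTL (open), against distance from the centre in kb. HOX genes sit below the dotted line at 1 FPKM, and some flanking genes such as *Mtx2* beside HoxD (52.9 and 80.6 FPKM) sit above it.

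The sequence ahead of HOX genes was set beside that of an expressed neighbour, to show the CG content ahead of near-zero genes and of an expressed gene of the same region. Promoter windows of RefSeq (GRCm38.p6, the 250 bases before the start site) were matched for 22 HOX genes, with 24 windows. Most were of HoxA and HoxD genes, with *Hoxb1*, *Hoxb4* and *Hoxb8* alone for HoxB and *Hoxc4* alone for HoxC. *Hoxa10* and *Hoxd11* had more than 1 window. For 20 of the 24, bases just past the start site were found in a transcript of the gene. Printed here are *Hoxd9* (chr2:74697513-74697762, plus strand, 13 CG), *Hoxd1* (chr2:74762730-74762979, plus strand, 24 CG) and *Mtx2* (chr2:74825562-74825811, plus strand, 12 CG), with CG dinucleotides in capitals. GC made up 65.2%, 71.6% and 53.2% of their bases. Windows with few CG were also found in HoxD, with 3 for *Hoxd4* and 2 for 1 of the *Hoxd11* windows.
Hoxd9: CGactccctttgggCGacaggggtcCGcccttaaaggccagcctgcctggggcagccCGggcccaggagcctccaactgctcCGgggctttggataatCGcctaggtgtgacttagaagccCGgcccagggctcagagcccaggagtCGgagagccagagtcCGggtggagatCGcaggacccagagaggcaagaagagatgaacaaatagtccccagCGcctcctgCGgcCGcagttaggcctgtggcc
Hoxd1: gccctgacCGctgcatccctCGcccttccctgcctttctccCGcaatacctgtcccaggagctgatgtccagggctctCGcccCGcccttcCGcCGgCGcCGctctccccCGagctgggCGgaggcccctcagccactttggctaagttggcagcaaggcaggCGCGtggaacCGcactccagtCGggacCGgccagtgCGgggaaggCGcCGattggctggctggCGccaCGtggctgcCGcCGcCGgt
Mtx2: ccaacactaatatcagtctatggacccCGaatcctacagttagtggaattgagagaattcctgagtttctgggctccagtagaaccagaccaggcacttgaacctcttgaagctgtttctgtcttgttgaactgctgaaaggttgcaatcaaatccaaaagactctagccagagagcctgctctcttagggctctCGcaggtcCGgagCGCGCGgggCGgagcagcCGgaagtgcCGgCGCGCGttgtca

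HOX windows held a median of 12.5 CG (range 2 to 35), those of entries with a mean of 1 FPKM or more 16, those of other entries below 1 FPKM 3 and those of olfactory receptors 1. At least 10 CG were found in 62.5% of HOX windows, 73.5% of windows of expressed entries, 20.1% of those of other low entries and 0.106% of those of receptors. Over all RefSeq windows the median was 6 CG, 37.8% held at least 10 and 92.1% at least 1. HOX genes and olfactory receptors thus had FPKM values of the same size. Their promoters differed in CG content, which for HOX genes was read mostly from HoxA and HoxD.

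Transcripts of the proteins that act with HOX factors were present. All 9 TALE cofactor genes were at 1 FPKM or more in every library. *Meis2* had 25.2 FPKM (CTL) and 22.7 FPKM (*Stat3* cKO) at E11 and 63.1 FPKM (CTL) and 71.6 FPKM (*Stat3* cKO) at E14. *Pbx2* had 40.5, 51.9, 16.2 and 18.8 FPKM. *Meis2* was thus 2.51 times E11 in CTL and 3.16 times in *Stat3* cKO, and *Pbx2* 0.401 and 0.362 times. Of the 20 Polycomb and Trithorax genes matched, 20, 20, 18 and 19 reached 1 FPKM, among them *Rnf2* (67.9 to 74.4 FPKM) and *Ezh2*, the methyltransferase of Polycomb (31.8 to 47.6 FPKM).

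Genes that start HOX expression were present in part. Of 11 upstream regulators, 3, 3, 2 and 2 reached 1 FPKM. *Gdf11*, a growth factor of the trunk, was the highest with 7.65 to 15 FPKM. The 3 Cdx genes, which switch on trunk HOX genes, lay between 0.0119 and 0.149 FPKM. Of the 18 genes of the retinoic acid pathway, 14, 13, 10 and 10 reached 1 FPKM, and of the 14 with a ratio 11 were at least 2-fold lower and 1 higher at E14 in each genotype. The 11 differed in 1 gene, since *Dhrs3* was at 0.0517 times E11 in CTL and 0.959 times in *Stat3* cKO, and *Rxra* at 0.545 and 0.471 times. The gene higher was *Rxrg*, at 2.91 and 9.63 times. The mesenchyme markers described further on fell with this list, 13 of 14 of them in each genotype, and their part in its fall was not tested. *Rarb*, a retinoic acid receptor gene that retinoic acid itself induces, had 66 FPKM (CTL) and 63.1 FPKM (*Stat3* cKO) at E11 and 2.83 FPKM (CTL) and 2.93 FPKM (*Stat3* cKO) at E14. *Crabp2*, a retinoic acid binding protein, had 76.9, 80.8, 0.05 and 0.483 FPKM. HOX genes were below 1 FPKM in the E11 libraries, where *Rarb* was higher, and in the E14 libraries. Retinoic acid signalling was not measured, and which cells held the *Rarb* transcript was not tested.

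Marker genes of brain regions placed the libraries beside the HOX values. Forebrain genes reached 1 FPKM in 11, 12, 9 and 10 of 12 cases, with *Lhx2* at 31.2 FPKM (CTL) and 30.1 FPKM (*Stat3* cKO) at E11 and 43.3 FPKM (CTL) and 47.2 FPKM (*Stat3* cKO) at E14. Of the 11 forebrain genes with a ratio, 5 (CTL) and 6 (*Stat3* cKO) were at least 2-fold lower at E14 and 1 was higher in each genotype. After upper-quartile scaling 8 were lower and 0 higher in CTL. *Otx2*, which marks forebrain and midbrain, had 31.9 and 35 FPKM at E11 and 3.56 and 4.78 at E14. Of 11 midbrain and isthmus genes, 4 reached 1 FPKM in each E11 library and 0 in each E14 library. *En2*, a gene of the midbrain and hindbrain border, had 4.85, 5.63, 0.415 and 0.15 FPKM.

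Of 12 hindbrain genes, 6, 5, 1 and 1 reached 1 FPKM. The highest, *Irx2* and *Irx3*, had 13.2 and 7.39 FPKM in E11 CTL, 12.8 and 7.86 in E11 *Stat3* cKO, 0.213 and 0.0509 in E14 CTL and 0.14 and 0.0506 in E14 *Stat3* cKO, and both are also expressed outside the hindbrain. Of 12 spinal cord and caudal genes, 3, 3, 1 and 1 reached it, led by *Isl1* with 8.29, 9.79, 2.12 and 3.09 FPKM, a gene that forebrain neurons express too. All 10 neural progenitor genes were above 1 FPKM in every library, among them *Sox2* with 128, 138, 206 and 284 FPKM.

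Markers of other cell types moved with stage. Of 16 mesenchyme, meninges and limb genes, 15 reached 1 FPKM in each E11 library, 6 (CTL) and 7 (*Stat3* cKO) at E14, and only *Hand2* stayed under it at E11, with 0.04 and 0.0296 FPKM. Their sum was 1520 FPKM (CTL) and 1390 FPKM (*Stat3* cKO) at E11 and 58.6 FPKM (CTL) and 77.9 FPKM (*Stat3* cKO) at E14. Of the 14 with a ratio, 13 were at least 2-fold lower at E14 in each genotype. The other was *Pdgfra*, also a gene of oligodendrocyte precursors, and without it the sums were 1470, 1330, 22.6 and 16.7 FPKM, higher in CTL than in *Stat3* cKO at E14. *Col3a1*, a collagen gene, had 674, 586, 7.64 and 4.29 FPKM. Of 10 neural crest genes 4, 4, 3 and 3 reached 1 FPKM, but their sum was 21, 21.5, 32.9 and 60.1 FPKM, and of the 4 with a ratio 3 were at least 2-fold higher and 1 lower at E14 in each genotype (in CTL 2 higher after upper-quartile scaling). *Sox10*, which is also a gene of the oligodendrocyte lineage, had 0.215, 0.134, 6.74 and 20.6 FPKM. Of the 8 blood and microglia genes matched, 3, 3, 1 and 0 reached it, and their sum was 30.8, 7.95, 2.64 and 1.6 FPKM. *Hbb-y* had 22.4, 3.07, 1.87 and 0.852 FPKM. All 3 with a ratio were lower in E11 *Stat3* cKO than in E11 CTL, as were most HOX genes, and the part of blood cells in that was not tested. The E11 libraries thus held mesenchyme transcripts that the E14 libraries held little of, and in both the HOX genes, limb and trunk members included, were below 1 FPKM; the part of these cells in the HOX values was not tested.

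**Figure D4:**
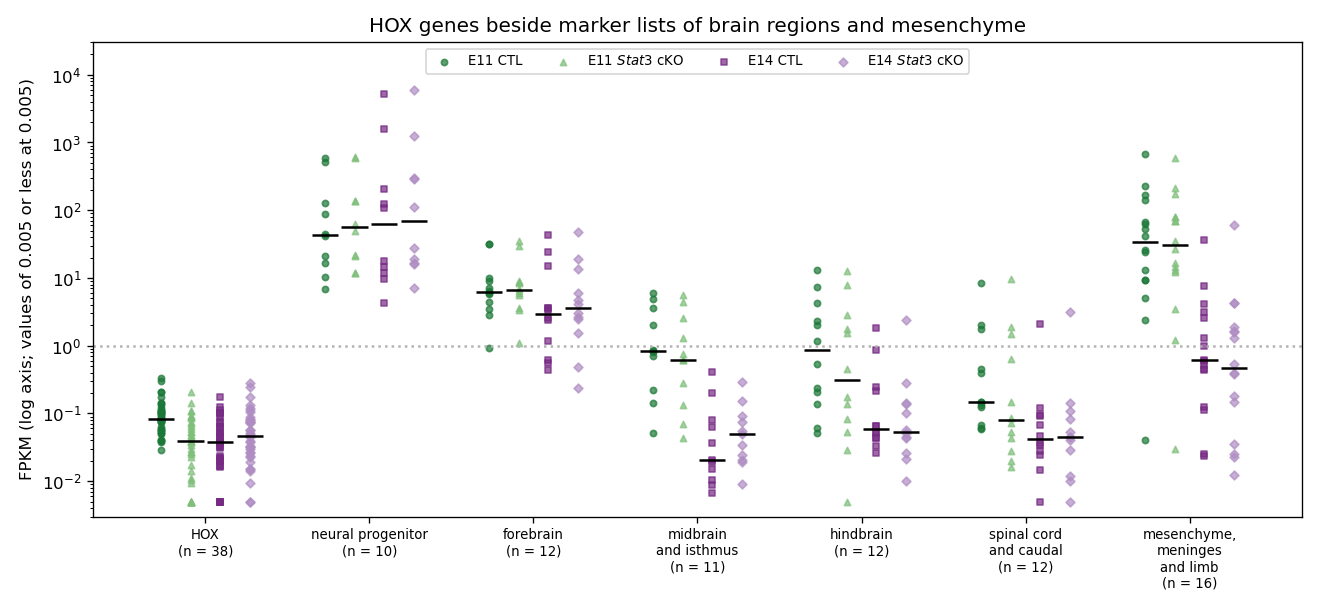
FPKM (log axis, values of 0.005 or less drawn at 0.005) of the 38 HOX genes and of marker lists of neural progenitors, brain regions and mesenchyme, with 1 point per gene and library and a bar at each median. HOX genes lie below the dotted line at 1 FPKM in all 4 libraries, and forebrain and progenitor genes lie mostly above it. The medians of the forebrain, midbrain, hindbrain, spinal cord and mesenchyme lists are all higher in the E11 than in the E14 libraries.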

How the data were processed

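RNA-seq of 4 libraries (1 per group) was analysed. The authors checked reads with FastQC, used TopHat and Cufflinks, and deposited FPKM values; the submitters' processing notes also name Bowtie 0.12.2 and the builds mm8 and mm9, with no role. FPKM values carry no counts, so the depth is known only relative to the value of 1 fragment. Values were used as deposited. Ratios had no pseudocount and were taken for entries with a mean of at least 1 FPKM and both values above 0 (12449 of 21091 entries reached that mean), and were called at 2-fold. Members and gene lists were chosen with earlier results of these data known. Named were the highest HOX gene of each cluster, neighbours that reach 1 FPKM and up to 4 highest members of each list. The rule also took in list members called in 2 or more comparisons, of which not all are named. Those, and all other genes named, such as the highest HOX gene of a library, *Rxra*, *Hotair*, *Hand2* and the Cdx genes, were chosen after their values were seen. The 0.1 FPKM level, the olfactory receptor and low-entry sets and the CG counts were added after the data were seen. Ratios and the fragment step were tested on simulated data. Alternatives were other levels, thresholds, pseudocounts, minimum means and scalings. Promoters came from RefSeq GRCm38.p6, whose coordinates must not be mixed with the listed ones. Python 3.11.15, numpy 2.4.6, pandas 2.3.3 and matplotlib 3.10.9 were used.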

Additional observations from a re-analysis of the deposited data

Results flagged for a closer look

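*Dhrs3*, which encodes a retinaldehyde reductase of the retinoic acid pathway, moved in opposite directions with genotype at the 2 stages. It had 23.2 FPKM (CTL) and 7.66 FPKM (*Stat3* cKO) at E11 and 1.2 FPKM (CTL) and 7.34 FPKM (*Stat3* cKO) at E14, a ratio of *Stat3* cKO to CTL of 0.331 at E11 and of 6.13 at E14. *Stat3* itself was at 0.911 times CTL in the library labelled E11 *Stat3* cKO. With 1 library per group the difference between the stages was not tested.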

How the results depend on the processing

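Of 76 planned values recomputed for the counts of HOX genes, 60 were fixed at 0, because no HOX gene had a ratio or because the level was raised, and say nothing about stability. Of the 16 that could move, the 8 counts at 0.5 FPKM or upper-quartile scaling stayed at 0, and 3 of the 8 at a lower minimum mean moved. The highest HOX value as deposited was 0.33 FPKM, so the first 8 add little to it. With a minimum mean of 0.1 FPKM, 3 HOX genes were lower at E14 than at E11 in CTL, 2 were higher at E14 than at E11 in *Stat3* cKO and 3 fell below CTL in the E11 *Stat3* cKO library, out of 6 or 7 with a ratio. At this minimum 20.1%, 11.4% and 4.04% of all entries with a ratio were called in the same directions. *Hoxb1*, *Hoxb5* and *Hoxc12*, the 3 lower in CTL, passed the minimum only through E11 CTL (means without it 0.0746, 0.0921 and 0.0729 FPKM), and *Hoxb1* and *Hoxb5* are also among the 3 at E11, so these counts are no support for a fall. The 2 higher in *Stat3* cKO were *Hoxb13* and *Hoxc4*. *Hoxc4* (0.104, 0.0629, 0.1 and 0.174 FPKM) passed the minimum only through E14 *Stat3* cKO, where it was called higher, so that count is no support for a rise. At a level of 0.1 FPKM, added later, 15 (CTL) and 4 (*Stat3* cKO) HOX genes at E11 and 6 and 7 at E14 were counted in place of 0. The counts of HOX genes with the lower value ran from 34 to 36 for stage in CTL, 11 to 16 for stage in *Stat3* cKO, 33 to 35 for genotype at E11 and 14 to 16 for genotype at E14 under upper-quartile scaling or division by the value of 1 fragment. The median of all entries with a ratio was 0.21 (log2) at E14 against E11 in CTL and -0.13 after upper-quartile scaling; after it the genes at least 2-fold lower were 12 in place of 11 for the retinoic acid list and 13 as before for the mesenchyme list, the neural crest genes at least 2-fold higher were 2 in place of 3, and *Meis2* in CTL fell from 2.51 to 1.99 times.

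Planned medians and single log2 ratios of HOX genes at the minimum mean of 1 FPKM were not computed, as no HOX gene reached it. There was no replicate to leave out, and no paired analysis was possible because the labels carry no replicate numbers. An additive fit of stage and genotype, which would leave 1 residual degree of freedom, was not run. The depth limits any statement to levels of a few fragments per gene: a HOX transcript in a small share of the cells was not detectable apart from them.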
